A study of Mus musculus with 15 samples.

Results

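*Krt6a*, *Krt6b*, *Krt16* and *Krt17* are the stress keratins of mouse skin, and all 4 were found by exact symbol among the 21110 genes measured. RNA-Seq was performed on ear RNA of C57BL/6 wild type (WT) and *Socs3* conditional knockout (*Socs3* cKO) mice, whose *Socs3* deletion is described as specific to keratin 5, by a construct not given in the sources used here. There were 4 WT and 4 *Socs3* cKO mice at 2 weeks of age, and 3 WT and 4 *Socs3* cKO mice at 10 weeks, with 1 library per mouse, and the study describes more WT mice than were analysed here. The labels name keratinocytes as the source while the protocol describes ear samples, and markers of dermal, muscle and immune cells were present in every group. Values are FPKM (fragments per kilobase of transcript, relative to the mapped reads of the library), so levels of genes of different length can be compared.

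Keratins build intermediate filaments from pairs of a type I and a type II chain. Keratins 5 and 14 pair in the basal layer of the epidermis and keratins 1 and 10 in the layers above. Keratin 6, a type II chain, pairs with the type I keratins 16 and 17, is made at all times in parts of the hair follicle such as the companion layer and outer root sheath, and is switched on between follicles in wounded, psoriatic or otherwise hyperproliferating epidermis. SOCS3 is an intracellular inhibitor of cytokine signaling through STAT3.

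The 4 genes lie in the keratin clusters, all on the minus strand of mm9. *Krt6b* (chr15:101506465-101510720) and *Krt6a* (chr15:101520363-101524738) have 9 exons each and are 9.6 kb apart, and *Krt6a* is 12.8 kb from *Krt5*, the type II keratin of the basal layer. *Krt16* (chr11:100107405-100110276) and *Krt17* (chr11:100117531-100122343) have 8 exons each and are 7.3 kb apart, and *Krt16* is 38.5 kb from *Krt14*, the type I partner of keratin 5. The coding sequences of *Krt6a* and *Krt6b* were identical at 1625 of 1662 aligned bases (97.8%), with an unbroken identical run of 280 bases. Of all windows as long as the 50-base reads, 44.0% of those in the *Krt6a* transcript and 44.6% of those in *Krt6b* also occurred in the other gene. *Krt16* shared 11.9% and *Krt17* 3.7% of their windows with *Krt14*, and *Krt6a* shared 6.8% with *Krt5*. The pair of windows below is the stretch of coding sequence within an exon where *Krt6a* and *Krt6b* differed most, shown because reads from such stretches are what separates the genes. It lies in exon 4 of each gene, at chr15:101522915-101522964 in *Krt6a* and chr15:101508734-101508783 in *Krt6b* (mm9, minus strand, 5′ to 3′), and capitals mark the 10 bases that differ.
Krt6a: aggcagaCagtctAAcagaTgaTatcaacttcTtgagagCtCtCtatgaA
Krt6b: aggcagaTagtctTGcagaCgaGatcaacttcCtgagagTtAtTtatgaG
How reads that fit both genes were divided is not given in the sources used here, so the split between *Krt6a* and *Krt6b* is less certain than their sum.

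*Socs3*, the targeted gene, was read first as a check of the labels. In the 2-week WT mice it was at 9.71, 10.3, 10.3 and 10.3 FPKM, and in the 2-week mice labelled *Socs3* cKO at 1.25, 9.32, 12.6 and 3.51 FPKM. At 10 weeks it was at 2.76, 4.81 and 2.02 FPKM in WT and at 36.6, 29.8, 47.7 and 32.4 FPKM in the mice labelled *Socs3* cKO. *Socs3* thus overlapped between the labelled genotypes at 2 weeks and was higher in all 4 mice labelled *Socs3* cKO at 10 weeks, so whole-ear *Socs3* did not separate the groups in the direction of the labels. Which part of the gene is deleted is not given in the sources used here, and ear RNA also holds transcripts of cells that do not make keratin 5. Every direction below is between libraries labelled *Socs3* cKO and libraries labelled WT. The sample numbers in the titles do not interleave between groups and are not said to mark a batch, so a batch effect, if there was one, cannot be told apart from the group.

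A pair of libraries stood apart in keratins. The 10-week *Socs3* cKO mouse of replicate 3 had 4.98 times the mean *Krt6a* level of the other 3 mice of its group, 20.9 times their *Krt6b* and 3.86 times their *Krt16*, but 1.04 times their *Krt17*. In the same mouse, for genes singled out after their values were seen, *Krt1* was 5.98 times, *S100a8* (a subunit of calprotectin) 67.5 times, *Sprr2f* (a small proline-rich protein of the cornified envelope) 94.0 times, the interferon-induced *Mx1* 14.6 times and the proliferation marker *Mki67* 2.09 times the mean of the others. The 2-week *Socs3* cKO mouse of replicate 1 had 432 FPKM of *Krt10* against 2937 to 3898 FPKM in the other 3, 838 FPKM of *Krt5* against 1548 to 2735 FPKM, and the highest *Krt14* of its group at 4321 FPKM. It also had the lowest *Krt6a* and *Krt6b* of its group, while its *Krt16* was the second highest. Values without these mice are given beside the keratin results they touch.

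In WT ears all 4 stress keratins were lower at 10 weeks than at 2 weeks. *Krt17* was the most abundant of them at 2 weeks, at 921, 850, 925 and 945 FPKM (rank 53 to 57 of 21110 genes), and fell to 227, 148 and 176 FPKM at 10 weeks. *Krt6a* went from 257, 258, 278 and 287 FPKM to 23.7, 37.7 and 13.7 FPKM. *Krt6b* went from 71.8, 72.4, 76.2 and 78.3 FPKM to 4.42, 7.14 and 2.64 FPKM. The 2-week mice lay close together for each gene, and in none of the 4 genes did the ages overlap. Groups did not overlap in 66.8% of all genes in this comparison, and 49.5% of all genes were lower without overlap and 17.3% higher. In limma fitted on log2(FPKM + 0.1), with a gene called at an adjusted p below 0.01 and a log2 difference of at least 1, *Krt6a* (-3.54 ± 0.49, SE, adjusted p = 8.44e-05), *Krt6b* (-4.06 ± 0.84, adjusted p = 0.0015) and *Krt17* (-2.33 ± 0.16, adjusted p = 2.74e-07) were called lower at 10 weeks, as were 19.4% of all genes, while 6.18% were called higher. Of the called genes 24.2% were higher at 10 weeks, a share that median-of-ratios scaling raised to 47.1% and quantile normalization to 48.8%. *Krt16* was at 186, 184, 187 and 199 FPKM at 2 weeks and at 139, 85.1 and 44.8 FPKM at 10 weeks, a log2 difference of -1.22 ± 0.44 that was not called (limma, adjusted p = 0.033). The median log2 difference of all genes was -0.44, and median-of-ratios scaling brought it to -0.05 and the 4 keratins to between -3.68 and -0.83. In ear RNA, fewer cells of a type and less RNA per cell cannot be told apart. Without WT replicate 3 of 10 weeks, the mouse with the lowest *Krt6a*, *Krt6b* and *Krt16*, *Krt6b* was no longer called (-3.71, limma, adjusted p = 0.0117).

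**Figure D1:**
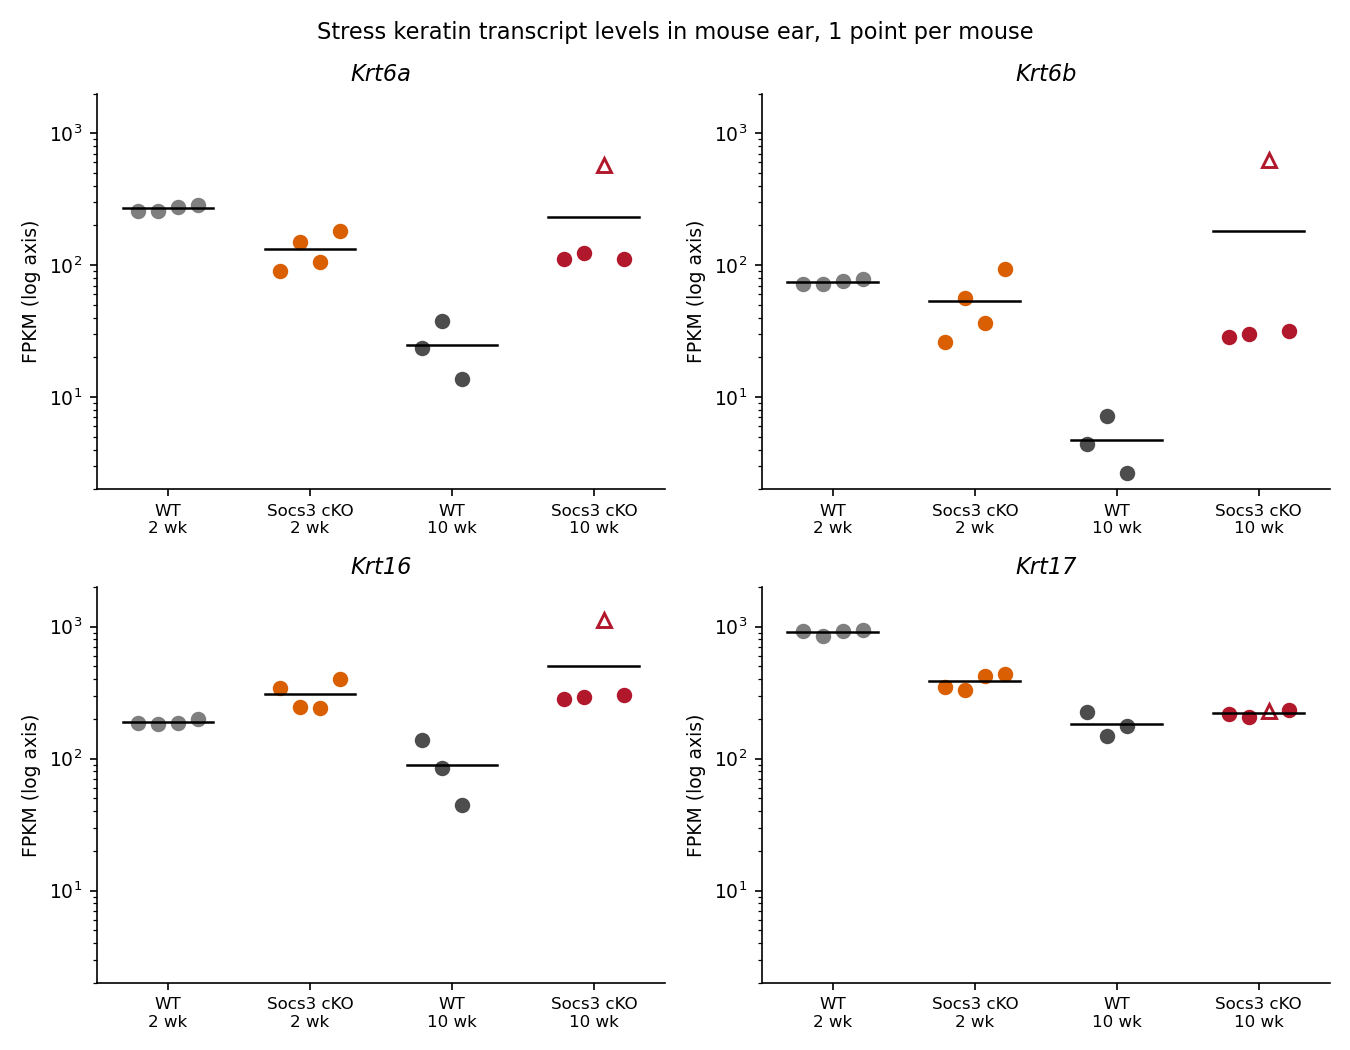
FPKM of *Krt6a*, *Krt6b*, *Krt16* and *Krt17* in each mouse on log axes, with 1 point per mouse in replicate order, a bar at the group mean, and an open triangle for replicate 3 of the 10-week *Socs3* cKO group. The WT mice lie lower at 10 than at 2 weeks in all 4 panels, and the triangle lies at 576, 632 and 1134 FPKM for *Krt6a*, *Krt6b* and *Krt16* but among the other mice at 228 FPKM for *Krt17*.

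At 2 weeks the 4 genes did not all differ in the same direction between genotypes. Among the type II chains, *Krt6a* was at 90.1, 151, 106 and 181 FPKM in the *Socs3* cKO mice, all below the 257 to 287 FPKM of WT, with means of 132 ± 41.5 (SD, n = 4) and 270 ± 15.1 (SD, n = 4). The fitted log2 difference was -1.08 ± 0.22 (limma, adjusted p = 0.00693), and *Krt6a* was called. *Krt6b* was at 26.2, 56.3, 36.4 and 93.2 FPKM in *Socs3* cKO, with 3 mice below the WT range of 71.8 to 78.3 FPKM and 1 above it. Its log2 difference of -0.66 ± 0.35 was not called (limma, adjusted p = 0.141), and it ran from -0.98 without *Socs3* cKO replicate 4 to -0.37 without replicate 1. Among the type I chains, *Krt17* was at 352, 332, 426 and 440 FPKM against 850 to 945 FPKM in WT. It fell by 1.24 on the log2 scale (SE 0.14, limma, adjusted p = 0.000559), or 2.36-fold, with no overlap. *Krt16* went the other way, at 342, 245, 244 and 405 FPKM against 184 to 199 FPKM in WT, every *Socs3* cKO mouse being above every WT mouse. The *Krt16* difference of 0.67 ± 0.19 passed neither the adjusted p nor the fold threshold (limma, adjusted p = 0.0201). Without replicate 1 *Krt16* was 0.61 and *Krt17* -1.20, and *Krt17* alone was called.

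*Krt6a* and *Krt17* were thus 2 of the 4 keratins called, both lower, where 14.4% of all 13524 genes were called, 7.24% higher and 7.19% lower. The groups did not overlap for *Krt6a*, *Krt16* and *Krt17*, which was also so for 56.1% of all genes (22.9% higher and 33.2% lower in *Socs3* cKO). For each of these 3 genes the exact permutation test (2-sided) gave p = 0.0286, the smallest it allows with 4 mice against 4, and for *Krt6b* p = 0.171. The fall of *Krt6a* lay close to both thresholds, and it was not called when any 1 of the 4 WT mice or *Socs3* cKO replicate 1 or 3 was left out (-1.11 to -0.92, limma, adjusted p = 0.00212 to 0.0251). It was -0.92 without the 2-week *Socs3* cKO mouse of replicate 1 (limma, adjusted p = 0.00212) and -0.88 with median-of-ratios scaling, and was not called in either. A correction of each library for gene length and GC content left *Krt6a* at -0.47 and *Krt17* at -0.51, neither of them called, and raised *Krt16* to 1.15, which was called.

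At 10 weeks *Krt6a*, *Krt6b* and *Krt16* were higher in every *Socs3* cKO mouse than in every WT mouse, and *Krt17* was not. *Krt6a* was at 112, 125, 576 and 111 FPKM against 13.7 to 37.7 FPKM in WT. The log2 difference was 2.90 ± 0.57 (limma, adjusted p = 0.00462) with all mice and 2.32 ± 0.32 (adjusted p = 0.00166) without replicate 3. *Krt6b* was at 28.3, 30.3, 632 and 31.9 FPKM against 2.64 to 7.14 FPKM in WT. The log2 difference of *Krt6b* was 3.85 ± 0.97 and was not called (limma, adjusted p = 0.0132), whereas without replicate 3 it was 2.76 ± 0.32 and was called (adjusted p = 0.000723). *Krt16* was at 283, 293, 1134 and 306 FPKM against 44.8 to 139 FPKM in WT, a log2 difference of 2.35 ± 0.52 (limma, adjusted p = 0.00789) with all mice and of 1.86 ± 0.36 (adjusted p = 0.0065) without replicate 3. *Krt17* was at 218, 206, 228 and 235 FPKM against 148 to 227 FPKM in WT, and its difference of 0.29 ± 0.19 was not called (limma, adjusted p = 0.245).

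*Krt6a* was not called without WT replicate 1 (2.92, limma, adjusted p = 0.0174) or WT replicate 3 (2.53, adjusted p = 0.0293). *Krt16* was not called when any 1 mouse other than *Socs3* cKO replicate 3 was left out (1.92 to 2.74, limma, adjusted p = 0.0108 to 0.0449).

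Of the 4 genes, *Krt6a* and *Krt16* were called higher, where 14.9% of all 13105 genes were called, 12.5% higher and 2.43% lower. The groups did not overlap for *Krt6a*, *Krt6b* and *Krt16*, as for 42.3% of all genes (31.2% higher and 11.1% lower). With 3 mice against 4 the exact permutation test (2-sided) cannot go below p = 0.0571, which was its value for those 3 genes, and it gave p = 0.171 for *Krt17*. The median log2 difference of all genes was 0.31, so *Krt17* lay at the level of the median gene. Of all called genes 83.7% were higher in *Socs3* cKO, and this share was 63.0% after scaling by the median of ratios and 54.4% after quantile normalization. The 4 keratins kept their direction under both, and *Krt16* was then no longer called, at 2.09 (adjusted p = 0.0135) and 2.32 (adjusted p = 0.0137) in limma.

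**Figure D2:**
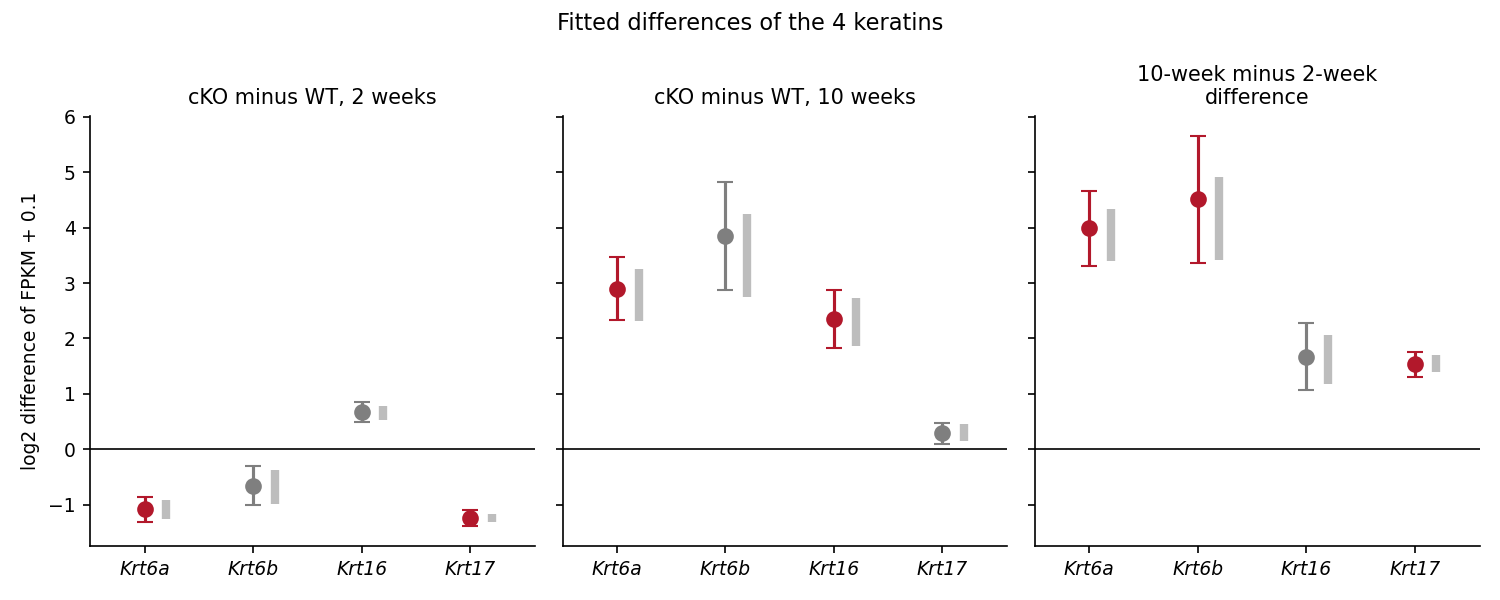
Fitted log2 differences of *Krt6a*, *Krt6b*, *Krt16* and *Krt17* between *Socs3* cKO and WT at 2 weeks, at 10 weeks, and their change with age. Points are limma estimates with bars of 1 SE, red where called, and gray strips give the range when each mouse is left out in turn. *Krt6a* and *Krt17* lie below 0 at 2 weeks (-1.08 and -1.24), *Krt16* above it at both ages (0.67 and 2.35), and the change with age is above 0 for all 4 genes.

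The change of the genotype difference between ages was tested in a fit of all 15 libraries. It was called, at an adjusted p below 0.01, for *Krt6a* (3.98 ± 0.67, limma, adjusted p = 0.00071), *Krt6b* (4.51 ± 1.15, adjusted p = 0.00678) and *Krt17* (1.53 ± 0.22, adjusted p = 0.000278). For *Krt16* it was 1.67 ± 0.61 (limma, adjusted p = 0.0351) and was not called. Of all 13937 genes 25.6% were called, 18.5% higher and 7.05% lower, and the median of all genes was 0.55. Of the called genes 72.4% were thus higher, and 52.0% after scaling by the median of ratios or 45.5% after quantile normalization. *Krt6a* turned from lower to higher, and *Krt17* from lower to a difference that was not called. The term shares its WT mice with the comparison of the WT ages, in which the keratins were lower at 10 weeks. Without replicate 3 of the 10-week *Socs3* cKO group it was 3.41 for *Krt6a*, 3.41 for *Krt6b* and 1.52 for *Krt17*, and all 3 were called in limma. *Krt6b* was not called when any 1 of the 2-week WT mice, 10-week WT replicate 1 or 3 or 2-week *Socs3* cKO replicate 3 was left out (4.15 to 4.53, limma, adjusted p = 0.0128 to 0.0233).

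In the *Socs3* cKO mice none of the 4 genes was called between ages in limma, and 3.54% of all genes were, 2.01% higher and 1.53% lower. *Krt17* fell by 0.80 on the log2 scale (SE 0.15, limma, adjusted p = 0.00433), which is under the fold threshold, with every 10-week mouse below every 2-week mouse, as in 6.79% of all genes (7.71% the other way). It was the one keratin of the 4 with an unadjusted p under 0.05. The others differed by 0.44 ± 0.46 (*Krt6a*), 0.45 ± 0.78 (*Krt6b*) and 0.45 ± 0.41 (*Krt16*), and their ages overlapped. Without replicate 3 of 10 weeks these 3 differences were -0.14, -0.65 and -0.04.

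The order of the levels differed between the genes. By mean log2 level *Krt6a* and *Krt6b* ran from 2-week WT through 10-week and 2-week *Socs3* cKO down to 10-week WT, and the first 3 groups overlapped with their neighbours in that order while 10-week WT lay apart. *Krt16* ran from 10-week *Socs3* cKO through 2-week *Socs3* cKO and 2-week WT to 10-week WT, and its ages overlapped in *Socs3* cKO only. *Krt17* ran from 2-week WT through 2-week and 10-week *Socs3* cKO to 10-week WT, and the last 2 groups overlapped. Part of this order rested on replicate 3 of the 10-week *Socs3* cKO group. When it was left out, the 10-week *Socs3* cKO mean lay below the 2-week one for *Krt6a* (-0.14), *Krt6b* (-0.65) and *Krt16* (-0.04). The overlap of 10-week *Socs3* cKO with 2-week WT in *Krt6a* and *Krt6b* came from that mouse alone.

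The make-up of the stress keratin pool changed along with its size. The 4 genes together held 0.322 ± 0.0128% (SD, n = 4) of all FPKM in 2-week WT mice, 0.153 ± 0.0324% (SD, n = 4) in 2-week *Socs3* cKO, 0.0559 ± 0.0101% (SD, n = 3) in 10-week WT and 0.223 ± 0.199% (SD, n = 4) in 10-week *Socs3* cKO, where replicate 3 held 0.521%. Of the FPKM of all 50 keratin genes they held 9.02, 6.94, 2.64 and 7.59%, in the same order. *Krt17* made up 63.0% of the pool in 2-week WT, 44.4% in 2-week *Socs3* cKO, 61.7% in 10-week WT and 27.2% in 10-week *Socs3* cKO. *Krt16* made up 13.1, 34.9, 28.3 and 44.5%. Its share in the 10-week *Socs3* cKO mice ran from 44.1 to 44.8%, replicate 3 included, while the share of *Krt17* there ran from 8.86 to 34.4%.

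**Figure D3:**
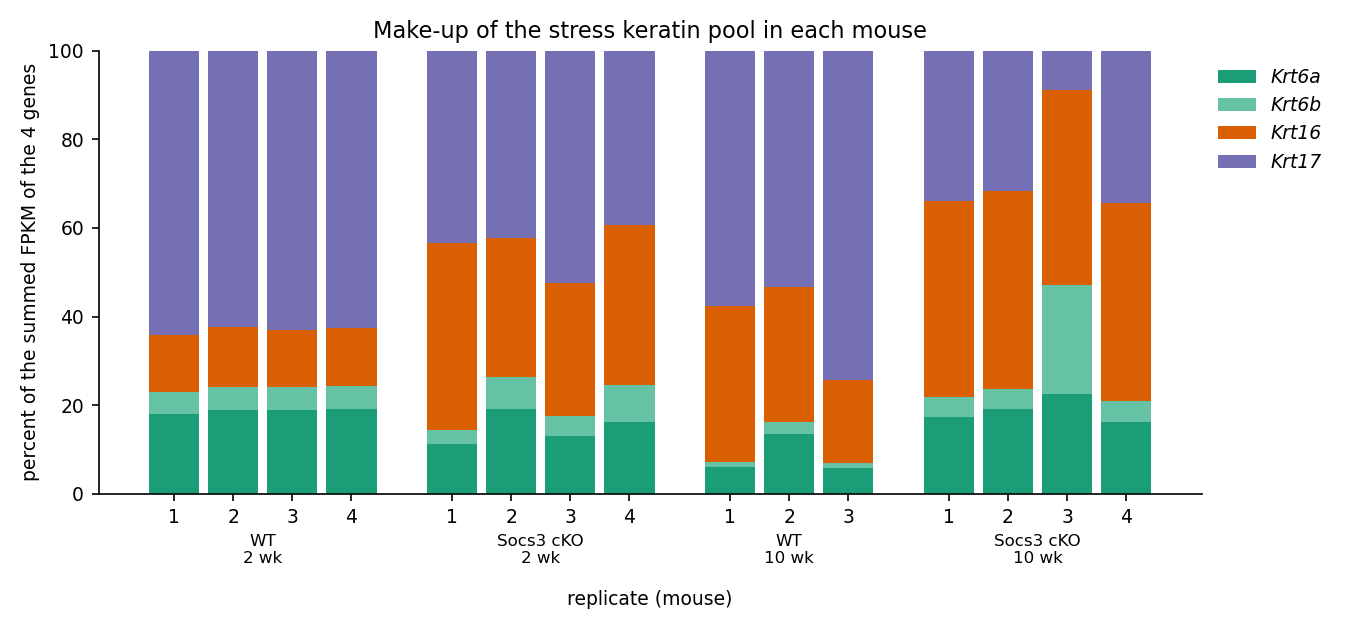
Share of each of *Krt6a*, *Krt6b*, *Krt16* and *Krt17* in the summed FPKM of the 4 genes, with 1 stacked bar per mouse. *Krt17* is the larger part in both WT groups, with group means of 63.0 and 61.7%, and *Krt16* takes 44.1 to 44.8% in all 4 of the 10-week *Socs3* cKO mice.

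Ratios of FPKM + 0.1 within a mouse hardly depend on the scaling between libraries, and 11 were compared at each age. The ratio of *Krt16* to *Krt17* was 0.202, 0.217, 0.203 and 0.210 in 2-week WT mice and 0.974, 0.737, 0.573 and 0.919 in 2-week *Socs3* cKO. The log2 ratio was 1.91 higher (exact permutation test, p = 0.0286, 0.0393 adjusted over the 11 ratios), with all 4 *Socs3* cKO mice above all WT mice. At 10 weeks the ratio was 0.612, 0.576 and 0.255 in WT and 1.30, 1.42, 4.98 and 1.30 in *Socs3* cKO, a log2 difference of 2.06 (exact permutation test, p = 0.0571, 0.0698 adjusted) that was 1.58 without replicate 3. *Krt16* thus exceeded *Krt17* per length in every 10-week *Socs3* cKO mouse and in no other mouse of the series.

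The ratio of *Krt6b* to *Krt6a* was 0.273 to 0.281 in 2-week WT and 0.292, 0.374, 0.343 and 0.515 in 2-week *Socs3* cKO (log2 difference 0.43, exact permutation test, p = 0.0286, 0.0393 adjusted). At 10 weeks it was 0.190, 0.191 and 0.1995 in WT and 0.255, 0.244, 1.10 and 0.288 in *Socs3* cKO (log2 difference 0.95, exact permutation test, p = 0.0571, 0.0698 adjusted). Without replicate 3 the 10-week difference was 0.43. Groups did not overlap at either age, and the replicate 3 mouse was the one mouse in which *Krt6b* exceeded *Krt6a*. The summed *Krt6a* and *Krt6b* stood to the summed *Krt16* and *Krt17* as 0.314 in 2-week WT, 0.254 in 2-week *Socs3* cKO, 0.103 in 10-week WT and 0.378 in 10-week *Socs3* cKO (geometric means). Genotypes overlapped in this ratio at 2 weeks and not at 10 weeks.

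**Figure D4:**
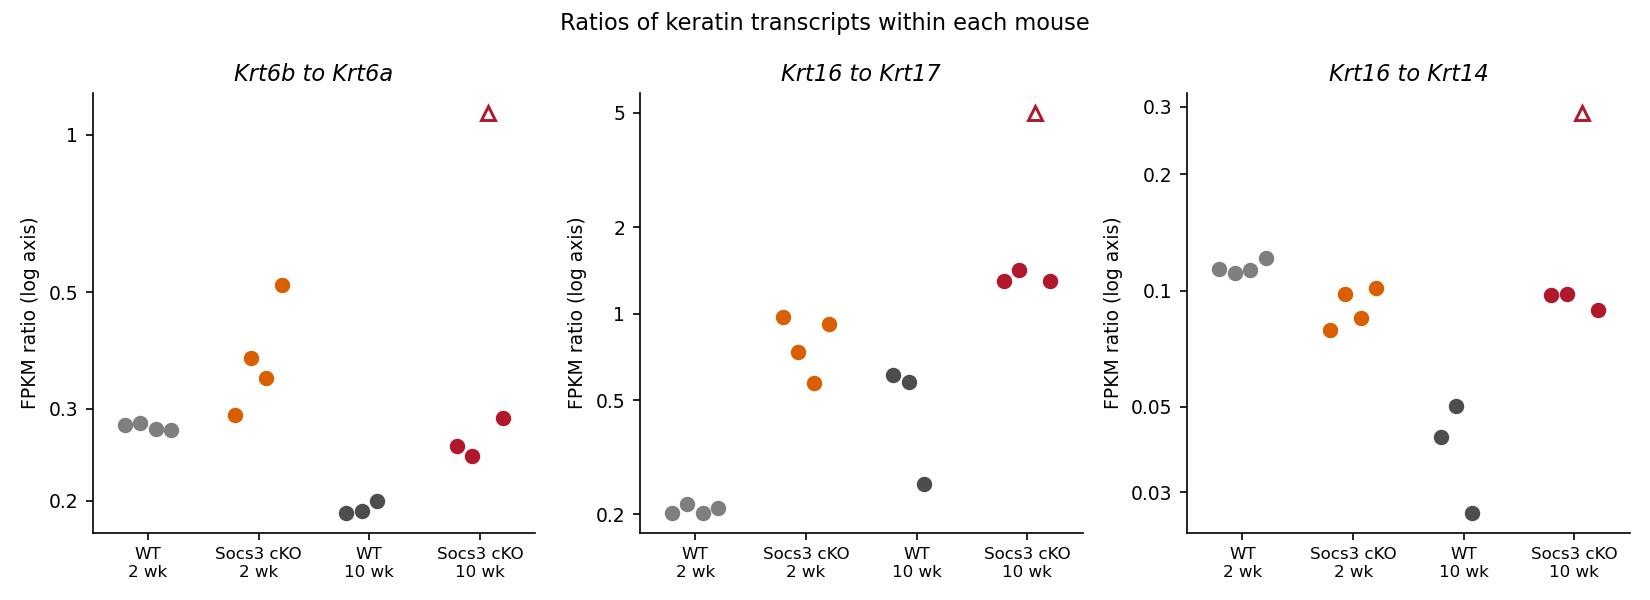
Ratios of FPKM within each mouse on log axes for *Krt6b* to *Krt6a*, *Krt16* to *Krt17* and *Krt16* to *Krt14*, with 1 point per mouse and an open triangle for replicate 3 of the 10-week *Socs3* cKO group. *Krt16* to *Krt17* lies at 0.202 to 0.217 in 2-week WT and at 1.30 to 4.98 in 10-week *Socs3* cKO, and *Krt16* to *Krt14* is lower in *Socs3* cKO than in WT at 2 weeks and higher at 10 weeks.

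Relative to the basal keratins, the picture at 2 weeks depended on which partner was taken. *Krt14* was at 1648 ± 13.1 FPKM (SD, n = 4) in WT and 3421 ± 868 FPKM (SD, n = 4) in *Socs3* cKO and was called higher (1.02 ± 0.21, limma, adjusted p = 0.0069), a difference that was 0.27 with quantile normalization and 0.89, below the fold threshold and not called, without replicate 1. *Krt5* was at 2269 ± 76.5 and 1916 ± 888 FPKM (SD, n = 4 each) and was not called (-0.39 ± 0.36, limma, adjusted p = 0.377; -0.04 without replicate 1). Relative to *Krt5*, *Krt16* rose by 1.06 on the log2 scale, 0.65 without the replicate 1 mouse, and *Krt6a* fell by 0.70. Relative to *Krt14*, all 4 fell, *Krt6a* by 2.10, *Krt6b* by 1.67, *Krt16* by 0.34 and *Krt17* by 2.26. Each of these 6 ratios had groups that did not overlap (exact permutation test, p = 0.0286, 0.0393 adjusted). *Krt6b* and *Krt17* overlapped between groups relative to *Krt5*, at -0.27 and -0.85 (exact permutation test, p = 0.2 and 0.143). For *Krt17* the overlap came from replicate 1, and without it the 3 other *Socs3* cKO mice lay below all WT mice, at a difference of -1.16.

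At 10 weeks both partners gave the same picture. The log2 ratios to *Krt5* were higher in *Socs3* cKO by 2.21 for *Krt6a*, 3.16 for *Krt6b* and 1.65 for *Krt16*, and those to *Krt14* by 2.26, 3.22 and 1.71 (exact permutation test, p = 0.0571 for each, the smallest possible). Without replicate 3 they were 1.69, 2.12 and 1.23 to *Krt5* and 1.77, 2.20 and 1.31 to *Krt14*. *Krt17* was -0.40 to *Krt5* and -0.34 to *Krt14*, and its groups overlapped (exact permutation test, p = 0.171 for each). *Krt5* and *Krt14* themselves were not called at 10 weeks (0.69 and 0.64, limma, adjusted p = 0.058 and 0.151).

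Among the 14 partner keratins and other keratins of the epidermis, the genes called at 2 weeks were *Krt14* and *Krt78*, a keratin of differentiated epithelia (1.26 ± 0.19, limma, adjusted p = 0.0019), both higher (*Krt78* alone without the replicate 1 mouse, as *Krt14* was no longer called), and *Krt7* (-1.44) and *Krt18* (-2.28), simple epithelial keratins, both lower. Of all genes 7.24% were called higher and 7.19% lower. *Krt18* had mean levels of 2.15 FPKM in WT and 0.37 FPKM in *Socs3* cKO, and passed the filter through the WT mice. At 10 weeks *Krt80*, a keratin of differentiating cells, was the single one called of 13 tested, higher at 2.94 ± 0.63 (limma, adjusted p = 0.00685), and without replicate 3 the list had 0 called. Of all genes 12.5% were called higher and 2.43% lower at 10 weeks. *Krt1* and *Krt10*, the pair of the suprabasal layers, were not called at either age. *Krt1* was at 173, 171, 1242 and 279 FPKM in 10-week *Socs3* cKO, and the highest was again replicate 3. The keratins that pair in the basal and suprabasal layers thus gave 1 call over both ages, that of *Krt14* at 2 weeks, which was lost without the replicate 1 mouse.

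The hair follicle, where stress keratins are made without injury, was compared through its own genes. *Krt75*, the type II keratin of the companion layer, was at 146, 137, 136 and 171 FPKM in 2-week WT and at 5.34, 6.05, 9.75 and 7.12 FPKM in 2-week *Socs3* cKO, and was called lower (-4.39 ± 0.20, limma, adjusted p = 1.1e-05). In 10-week WT mice it was at 1.62, 3.05 and 2.71 FPKM, and in 10-week *Socs3* cKO at 4.49, 4.07, 2.09 and 4.98 FPKM, where the replicate 3 mouse with the highest *Krt6a*, *Krt6b* and *Krt16* had the lowest *Krt75* of its group. Of the 25 genes tested of the companion layer, sheath and shaft, 24 were called lower at 2 weeks. Many passed the filter through the WT mice alone, and of the 11 that reached 1 FPKM in at least 3 mice of each genotype 10 were called lower, against 4.62% of all such genes. Among all 25, the largest differences were in the hair shaft keratins *Krt81* (-7.93 ± 0.62), *Krt83* (-7.89 ± 0.60) and *Krt86* (-7.64 ± 0.51), with limma adjusted p of 9.47e-05, 8.96e-05 and 6.04e-05. Their mean levels were 108, 110 and 91.2 FPKM in WT and 0.49, 0.52 and 0.46 FPKM in *Socs3* cKO. These hair shaft keratins thus passed the filter through the WT mice. At 10 weeks 7 of the 25 genes passed the filter on low values, 4 of them at 1 FPKM in at least 3 mice of each genotype. In limma 0 of the 7 were called, with 1 lower at an unadjusted p under 0.05. With quantile normalization 1 was called lower. Of all genes 12.5% were called higher and 2.43% lower at 10 weeks, so 0 calls among 7 genes say little.

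Of 12 genes of follicle stem cells and the outer root sheath, 7 were called lower at 2 weeks and 0 higher, with 9 lower and 0 higher at an unadjusted p under 0.05. Of all genes 7.19% were called lower and 7.24% higher. The 7 included the stem cell factor *Lhx2* (-2.84 ± 0.27, limma, adjusted p = 0.000246) and the hedgehog effector *Gli2* (-2.53 ± 0.40, adjusted p = 0.00252). Of the 11 at 1 FPKM in at least 3 mice of each genotype, 6 were called lower, against 4.62% of all such genes. At 10 weeks *Ptch1* (2.75) and *Lgr6* (1.65) were called higher and *Sox9* (-1.11) lower among 11 tested, and without replicate 3 the counts were 1 and 1. Of all genes 12.5% were called higher and 2.43% lower at 10 weeks. The follicle genes fell at 2 weeks along with *Krt17* and *Krt6a*, while *Krt16* was higher, and their part in the keratin differences was not tested.

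Ligands, receptors and transcription factors known to act on the stress keratins were counted at each age. Of the upstream ligands, 6 of 12 tested were called higher and 2 lower at 2 weeks, and 11 of 16 higher and 0 lower at 10 weeks (8 of 14 higher without replicate 3), with 0 lower at an unadjusted p under 0.05 in limma. The list held 22 ligands, and those that passed the filter only through the group where they were high had to differ. Of those at 1 FPKM in at least 3 mice of each genotype, 6 of 10 were called higher and 1 lower at 2 weeks, against 6.84 and 4.62% of all such genes, and 2 of 7 higher at 10 weeks, against 10.3% of all such genes. The largest differences at 2 weeks were in the IL-36 cytokines *Il1f8* (3.41 ± 0.25, limma, adjusted p = 7.33e-05) and *Il1f6* (3.30 ± 0.25, adjusted p = 9.0e-05) and the EGF receptor ligand *Ereg* (2.60 ± 0.21, adjusted p = 0.00012). At 10 weeks they were *Il6* (7.84 ± 0.52, limma, adjusted p = 2.14e-05), *Il1b* (4.88 ± 0.51, adjusted p = 0.000259) and the IL-10 family cytokine *Il24* (4.13 ± 0.57, adjusted p = 0.00102), with mean levels in *Socs3* cKO of 69.4, 15.6 and 2.73 FPKM against under 1 FPKM in WT.

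Of 17 receptors, 1 was called higher at 2 weeks, the interferon gamma receptor chain *Ifngr1* (1.21 ± 0.12, limma, adjusted p = 0.00025), and without the replicate 1 mouse 2 were called higher and 2 lower. Of all genes 7.24% were called higher and 7.19% lower at that age. At 10 weeks 10 receptors were called higher and 0 lower in limma (12 and 0 at an unadjusted p under 0.05). Of all genes 12.5% were called higher and 2.43% lower there. The count of receptors called higher was 7 with either median-of-ratios scaling or quantile normalization and 8 without replicate 3. Of the 13 receptors at 1 FPKM in at least 3 mice of each genotype, 6 were called higher, against 10.3% of all such genes. The 10 included the IL-36 receptor *Il1rl2* (4.14 ± 0.47, adjusted p = 0.000403), *Erbb3* (3.13 ± 0.61, adjusted p = 0.00451), which pairs with the EGF receptor, and the IL-22 receptor chain *Il22ra1* (3.09 ± 0.56, adjusted p = 0.00327). Of the transcription factors reported to act on stress keratin genes, 1 of 20 was called at 2 weeks, *Fosl2* (-1.49 ± 0.30, limma, adjusted p = 0.00704), an AP-1 subunit. At 10 weeks 13 of 21 were called higher, where 12.5% of all genes were, and 11 were called without replicate 3. All 21 had a log2 difference above 0 (also with both other scalings), where the median of all genes was 0.31. Of the 19 at 1 FPKM in at least 3 mice of each genotype, 11 were called higher, against 10.3% of all such genes. Among all 21, the AP-1 subunits *Fosl1* (7.98 ± 0.38, limma, adjusted p = 5.01e-06), *Fosb* (5.85 ± 0.49, adjusted p = 8.63e-05) and *Fos* (5.22 ± 0.57, adjusted p = 0.000318) had the largest differences. *Fosl1* had mean levels of 0.08 FPKM in WT and 42.6 FPKM in *Socs3* cKO, and passed the filter through the *Socs3* cKO mice. Its WT level was below the 0.1 added before the log, so the size of its difference depends on that setting. *Fosb* and *Fos* had WT means of 1.64 and 5.41 FPKM.

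**Figure D5:**
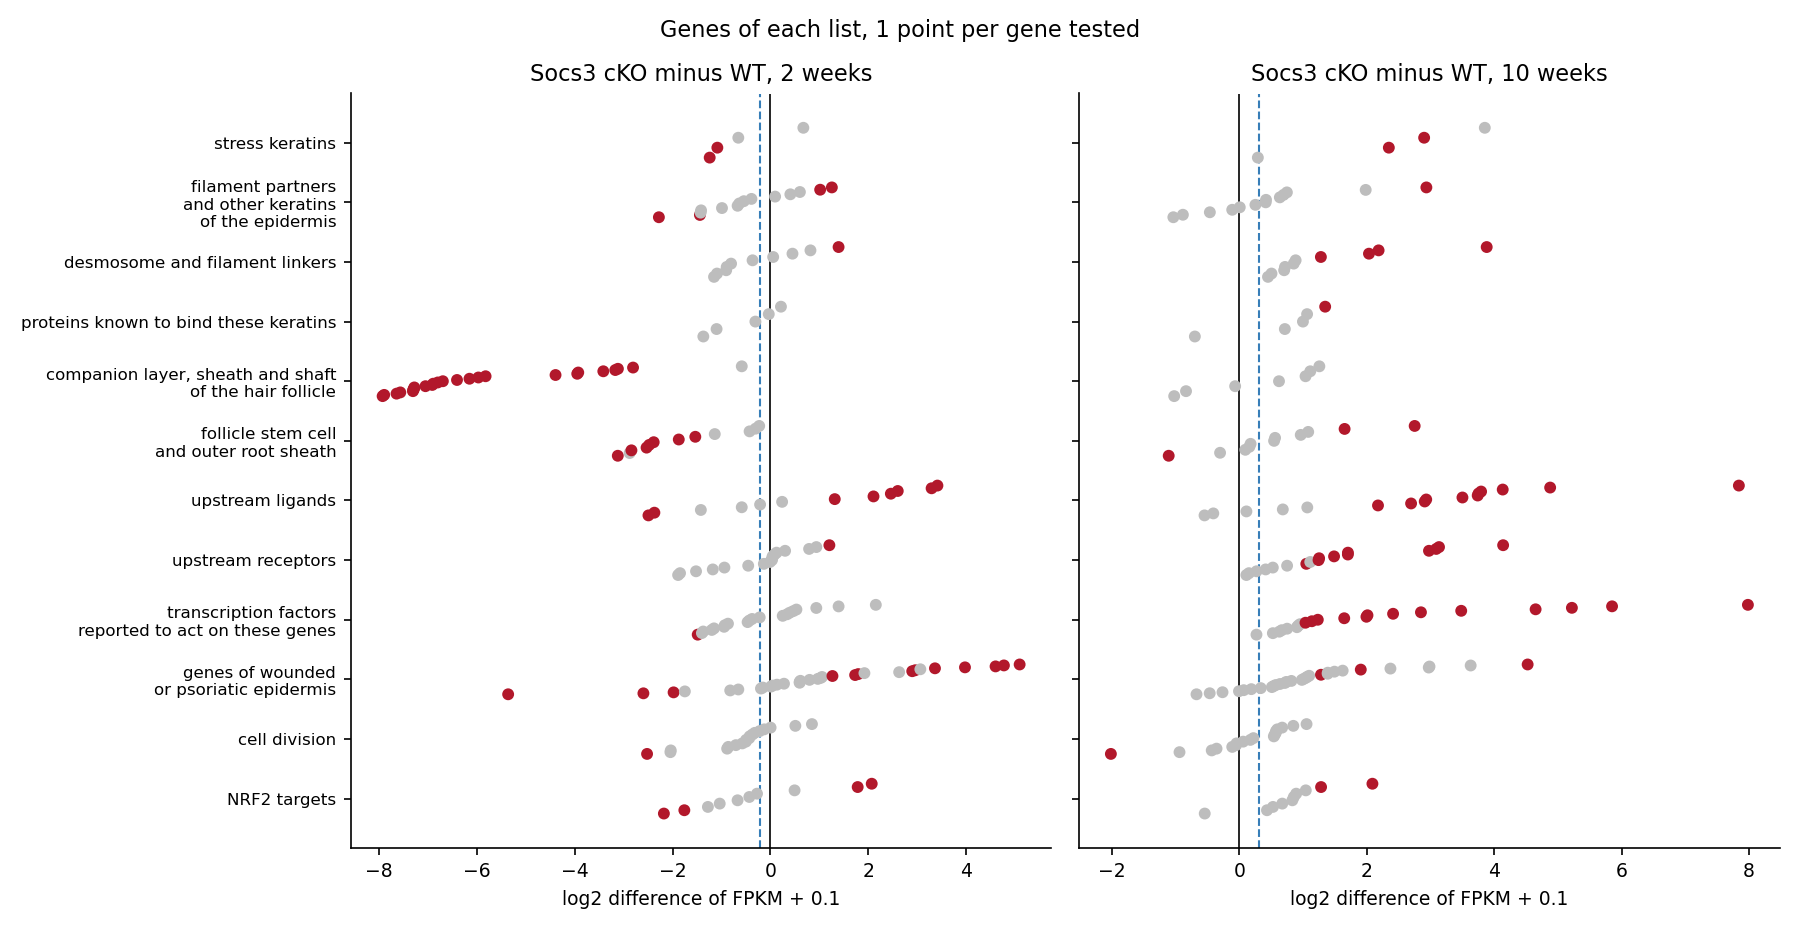
Log2 differences between *Socs3* cKO and WT at 2 and 10 weeks for the 4 stress keratins and for each gene tested of the 11 lists, red where called. The dashed line is the median of all genes (-0.21 and 0.31). Follicle genes such as *Krt81* (-7.93) lie far to the left at 2 weeks, and all 21 transcription factors lie to the right of 0 at 10 weeks.

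Of the other genes known from wounded or psoriatic epidermis, 10 of 32 tested at 2 weeks were called higher and 3 lower, and without the replicate 1 mouse 14 and 5, where 7.24 and 7.19% of all genes were called. Of the 24 at 1 FPKM in at least 3 mice of each genotype, 7 were called higher and 2 lower, against 6.84 and 4.62% of all such genes. *S100a8* (4.77 ± 0.30, limma, adjusted p = 4.45e-05) and the defensin *Defb14* (5.09 ± 0.88, adjusted p = 0.00359) were higher and the psoriasin gene *S100a7a* (-5.36 ± 0.41, adjusted p = 8.96e-05) was lower. At 10 weeks 3 of 30 were called, all higher, no more than the 12.5% of all genes called higher. They included *Plaur* (1.91 ± 0.18, limma, adjusted p = 0.000161), the urokinase receptor, and the hyaluronan receptor *Cd44* (1.28 ± 0.24, adjusted p = 0.00402). Of the 30 genes 26 lay above 0, with a median log2 difference of 0.997 where that of all genes was 0.31. At an unadjusted p under 0.05 in limma 10 were higher and 1 lower. Without replicate 3 of the 10-week *Socs3* cKO group 20 of 28 lay above 0, with a median of 0.48 against 0.29 for all genes. In the replicate 3 mouse, 25 of the 30 (83.3%) were at their highest among the 4 *Socs3* cKO mice, against 25.5% of all genes.

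Desmosomes and linker proteins anchor the filaments. Of 10 of their genes, *Dsc3* (1.39 ± 0.16, limma, adjusted p = 0.000495), a desmosomal cadherin, was called higher at 2 weeks, where 7.24% of all genes were. Without the replicate 1 mouse 2 of the 10 were called higher. At 10 weeks 4 were called higher and all 10 lay above 0, also with both other scalings, where 12.5% of all genes were called higher and the median of all genes was 0.31. The desmosomal cadherins *Dsg3* (3.88 ± 0.39, limma, adjusted p = 0.000227) and *Dsc2* (2.19 ± 0.34, adjusted p = 0.00171) and the linker *Dst* (2.03 ± 0.26, adjusted p = 0.000713) led them. *Dsc2* had mean levels of 0.64 FPKM in WT and 3.42 FPKM in *Socs3* cKO, and passed the filter through the *Socs3* cKO mice. Of the 9 at 1 FPKM in at least 3 mice of each genotype, 3 were called higher, against 10.3% of all such genes. Without replicate 3 of the 10-week *Socs3* cKO group, 3 of the 10 were called higher. Of 5 genes tested for proteins known to bind these keratins, *Hnrnpk*, an RNA-binding protein reported to bind keratin 17, was called higher at 10 weeks (1.35 ± 0.25, limma, adjusted p = 0.00369). At 2 weeks 0 of the 5 were called in limma, with 2 lower and 0 higher at an unadjusted p under 0.05.

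Cell division genes gave 1 call at each age among 18 tested, below the 14.4 and 14.9% of all genes called, the mitotic factor *Foxm1* (-2.52 ± 0.49, limma, adjusted p = 0.00591) at 2 weeks and the nucleotide enzyme *Tyms* (-2.01 ± 0.19, adjusted p = 0.00017) at 10 weeks. Without the replicate 1 mouse 3 were called lower at 2 weeks. Of 10 targets of NRF2, a factor of the oxidative stress response, 2 were called higher and 2 lower at 2 weeks, against 7.24 and 7.19% of all genes, with *Gsta4* (2.07 ± 0.28, limma, adjusted p = 0.00122) and *Nqo1* (1.78 ± 0.21, adjusted p = 0.000629) among the higher and *Gpx2* (-2.18 ± 0.28, adjusted p = 0.000968) among the lower. At 10 weeks *Gclc* (2.09 ± 0.49, limma, adjusted p = 0.00984) and *Osgin1* (1.28 ± 0.26, adjusted p = 0.00489) were called higher, against 12.5% of all genes. The count was 1 with median-of-ratios scaling, 1 without replicate 3 and 0 with quantile normalization.

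Across the 15 libraries, *Krt6a* and *Krt6b* had closely similar patterns (Pearson r = 0.970 on the log2 scale), a value over genes that share reads. *Krt16* followed *Krt6b* (r = 0.826) and *Krt6a* (r = 0.739) less closely, and hardly followed *Krt17* (r = 0.087). *Krt17* had r = 0.622 with *Krt6a* and 0.493 with *Krt6b*. Without replicate 3 of the 10-week *Socs3* cKO group r was 0.798 and 0.766 for these, and 0.666 for *Krt16* with *Krt6a* and 0.726 for *Krt16* with *Krt6b*. For *Krt16* with *Krt17* it was then 0.272. Within groups, as deviations from the group mean, r was 0.975 for *Krt6a* with *Krt6b*, 0.825 for *Krt6a* with *Krt16*, 0.002 for *Krt6a* with *Krt17* and 0.348 for *Krt16* with *Krt17*. Without that mouse these became 0.944, 0.494, -0.118 and 0.464. All are descriptions over libraries that share group and scaling, and a batch, if there was one.

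Among 13937 genes, those most like *Krt6a* across the 15 libraries were *Dsc2* (r = 0.947), *Enah*, *Gm5478*, *Arhgap1* and *Lrp12*. *Krt6b* was most like *Cmpk2* (r = 0.930), *Rnf114*, *Gm5478* and *Tor3a*. *Gm5478* is listed by RefSeq as a transcribed pseudogene and was near both *Krt6* genes (r = 0.941 and 0.918). *Krt16* was most like *Hspa4l* (r = 0.929), *Ehf*, *Myd88*, *2610528A11Rik* and *Aqp9*, and *Krt17* most like *Ncald* (r = 0.977), *Sox11*, *Car6*, *Rcn1* and *Rasl11b*. No gene other than *Gm5478* was among the nearest 5 of more than 1 keratin. Within groups the likeness to *Krt17* was weak for *Ncald* (r = 0.039) and higher for *Rcn1* (r = 0.712).

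Markers of other cells of the ear moved with the groups. The 6 fibroblast markers summed to 12664 to 14859 FPKM in 2-week WT and 5107 to 7088 FPKM in 2-week *Socs3* cKO, and to 3858 to 6812 and 6795 to 11807 FPKM at 10 weeks. The 2-week sums did not stand for all 6 markers. The collagens *Col1a1* (-3.06), *Col1a2* (-1.72) and *Col3a1* (-1.21) were called lower in limma. *Dcn* (1.24) was called higher, and *Lum* (0.40) and *Pdgfra* (0.19) lay above 0 and were not called. Of all genes 7.24% were called higher and 7.19% lower at 2 weeks. The 6 markers of skeletal muscle summed to 606 to 921 and 1440 to 2816 FPKM at 2 weeks. At 10 weeks they summed to 338 to 624 FPKM in *Socs3* cKO, below the 678 FPKM of the lowest WT mouse. The 7 leukocyte markers summed to 471 to 582 and 589 to 744 FPKM at 2 weeks, and to 626 to 778 and 1232 to 1673 FPKM at 10 weeks. The 5 adipocyte markers summed to 221 to 257 and 392 to 773 FPKM at 2 weeks, and to 324 to 428 and 401 to 779 FPKM at 10 weeks. The 4 endothelial markers summed to 51.9 to 59.2 and 39.2 to 48.1 FPKM at 2 weeks, and to 10.4 to 14.5 and 27.9 to 38.8 FPKM at 10 weeks. None of these markers was at 0 in every mouse of a group. The 5 neutrophil markers summed to at most 10.0 FPKM in any mouse. The 8 keratinocyte markers summed to 8480 to 9277, 7589 to 13609, 5584 to 11107 and 8984 to 13148 FPKM in 2-week WT, 2-week *Socs3* cKO, 10-week WT and 10-week *Socs3* cKO, so the genotypes overlapped at both ages in this sum. Of the 8, 3 were called higher and 0 lower at 2 weeks, and 2 higher and 0 lower at 10 weeks. At 10 weeks 12.5% of all genes were called higher and 2.43% lower. The part of cell make-up in the keratin differences was not tested.

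The keratins were well above the lowest values the libraries can show. The steps between low values gave an estimate of 11900000 to 16900000 mapped reads per library, and the lowest keratin value, *Krt6b* in replicate 3 of 10-week WT, stood for about 76.2 reads. Such a number bears on counting error only.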

How the data were processed

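Total RNA of mouse ears was sequenced as single reads of 50 bases, in 1 library per mouse. FPKM values per gene were deposited by the authors for each of the 15 mice. TopHat2 2.1.0 and Cufflinks stand in the submitters' processing notes, with the build mm9, and the annotation, the filters and the handling of reads that fit several genes are not given in the sources used here. No read counts were used, so the tests rest on the spread between mice and not on a count model.

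Groups were taken from the labels. Values were analysed as log2(FPKM + 0.1), which understates changes of low genes. Genes with at least 1 FPKM in at least 3 of the mice compared were fitted in R 4.3.3 with limma 3.58.1, its prior variance following the mean level, and p-values were adjusted by Benjamini-Hochberg over all genes tested. A gene was called at an adjusted p below 0.01 and a log2 difference of at least 1, or at the adjusted p alone for the change of the genotype difference with age. Each age was fitted on its own mice, and the age comparisons on all 15. Ratios were compared by exact 2-sided permutation of the mice (Python 3.11.15, scipy 1.17.1), adjusted over 11 ratios per age. The smallest p is 0.0286 with 4 mice against 4 and 0.0571 with 3 against 4. The fits were tested on simulated data.

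The keratins, gene lists and tests were chosen with earlier results of these data known. The stress keratins, *Krt5*, *Krt14*, *Krt1*, *Krt10*, *Krt75* and *Socs3* were named in any case, and from each list and age up to 3 called genes with the largest log2 difference, besides the 5 genes most correlated with each stress keratin. A few genes that this rule names are not reported here. Alternatives were other pseudocounts (1 and 0.01), filters, scalings and variance priors, a removed trend with gene length and GC content, the replicate number as a block, other sets of groups in the fit, and leaving out each mouse. List counts without 10-week *Socs3* cKO replicate 3 or 2-week *Socs3* cKO replicate 1 were added after seeing the data, as were partner keratin values without these mice and list counts over genes with at least 1 FPKM in at least 3 mice of each genotype. Sequence sharing was counted in GENCODE protein-coding transcripts on mm9, from all transcript windows of 50 bases that were identical in another gene. Mapped reads per library (11900000 to 16900000) were estimated from the steps between low FPKM values. Replicates with the same number were compared through their deviations from the group means.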

Additional observations from a re-analysis of the deposited data

Results flagged for a closer look

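One mouse of the 10-week *Socs3* cKO group, replicate 3, lay far above the other 3 in *Krt6a* (576 FPKM), *Krt6b* (632 FPKM) and *Krt16* (1134 FPKM). In its ratios it also lay apart, with 1.10 for *Krt6b* to *Krt6a*, 4.98 for *Krt16* to *Krt17* and 0.887 for *Krt6a* and *Krt6b* summed to *Krt16* and *Krt17* summed. To *Krt5* the ratios of *Krt6a* and *Krt6b* were 0.210 and 0.230, and to *Krt14* those of *Krt6a*, *Krt6b* and *Krt16* were 0.146, 0.160 and 0.288. In the 2-week WT group the ratio of the sums was lowest in replicate 1, at 0.297, with the other 3 mice at 0.319 to 0.320. Of 45 groups of mice examined this way 12 held a mouse apart, where chance gives about 1 in 20, and the values of 1 mouse are not independent of each other.

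The genotype difference changed between ages, in the test of that change, for *Krt6a* (3.98), *Krt6b* (4.51) and *Krt17* (1.53) on the log2 scale.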

How the results depend on the processing

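No difference or ratio of the 4 keratins reversed its direction while called, and the cause of each change below was not tested. At 2 weeks *Krt6a* was no longer called with median-of-ratios scaling (-0.88), with the trend in gene length and GC content removed (-0.47) or with all 4 groups in one fit (-1.08, limma, adjusted p = 0.0576). Removing that trend also ended the call of *Krt17* (-0.51), brought in *Krt16* (1.15), took the change with age out of the calls for *Krt6b* (3.74) and *Krt17* (0.99), brought in the fall of *Krt17* with age in *Socs3* cKO (-1.05), and gave 1279 called genes at 10 weeks (1957 as reported) and 2297 between WT ages (3559). At 10 weeks *Krt16* was not called without a filter (2.35), with median-of-ratios scaling (2.09), quantile normalization (2.32) or a constant prior variance (2.35), and *Krt6b* was called with a stricter filter (3.85) or all groups in one fit (3.85). With all groups in one fit 3300 genes were called at 2 weeks (1951 as reported). With only the groups compared, *Krt16* was called between WT ages (-1.22), and 146 genes were called between *Socs3* cKO ages.

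When single mice were left out, the numbers of called genes ran from 859 to 3348 at 2 weeks, 745 to 2665 at 10 weeks, 1994 to 5117 for the change with age, 2205 to 3826 between WT ages and 300 to 700 between *Socs3* cKO ages. At 2 weeks *Krt6a* ran from -1.25 to -0.92, and at 10 weeks it ran from 2.32 to 3.26. *Krt6b* ran from 2.76 to 4.25 at 10 weeks, from 3.41 to 4.90 in the change with age and from -4.41 to -3.71 between WT ages, and *Krt16* from 1.86 to 2.74 at 10 weeks. The 2-week log2 ratios ran from 0.27 to 0.55 (*Krt6b* to *Krt6a*), 1.81 to 2.07 (*Krt16* to *Krt17*), -0.88 to -0.59 (*Krt6a* to *Krt5*), 0.65 to 1.35 (*Krt16* to *Krt5*), -2.32 to -1.81 (*Krt6a* to *Krt14*), -1.91 to -1.27 (*Krt6b* to *Krt14*), -0.40 to -0.28 (*Krt16* to *Krt14*) and -2.38 to -2.09 (*Krt17* to *Krt14*), and 3 mice against 4 cannot pass the threshold there.

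Replicate numbers did not pair the mice. The correlation of deviations across genes was 0.026, -0.041, 0.135 and -0.040 for the same-numbered pairs at 2 weeks and -0.209, 0.068 and -0.192 at 10 weeks, and not every mouse correlated best with its own number. With the replicate number as a block, 751 genes were called at 2 weeks, *Krt6a* was not called there (-1.08, limma, adjusted p = 0.018), *Krt6b* was called at 10 weeks (4.19), *Krt16* was not (2.49), and the change with age was not called for *Krt6b* (4.50). Under the block the 2-week ratios kept their values (0.43, 1.91, -0.70, 1.06, -2.10, -1.67, -0.34 and -2.26, in the order above), which 4 pairs cannot bring past the threshold.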

Other observations

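Replicate 3 of the 10-week *Socs3* cKO mice also stood apart outside the keratins. Of 9800 genes, 42 were more than 4-fold above all 3 other mice of the group in it, against 19, 14 and 8 in those mice, and 8 were more than 4-fold below. Among the lists, it was the highest of the 4 mice for 12 of 16 ligands, 13 of 18 cell division genes and 0 of 6 fibroblast markers, against 25.5% of all genes. Of the other markers, it was the highest for 6 of 8 of keratinocytes, 3 of 3 of neutrophils, 1 of 7 of leukocytes and 1 of 4 of cartilage. It was the highest for 0 markers of skeletal muscle, adipocytes, endothelium, melanocytes or Schwann cells.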
